A study of Mus musculus with 20 samples.

Results

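The comparison described here set mouse CD8 T cells at week 4 of culture against CD8 T cells at week 1, across all genes. It used the 10 CD8 libraries among the 20 libraries of the series, chosen by their labels, 5 for each time. CD8 cells had been taken from spleen and inguinal lymph nodes, and activated on plates coated with antibodies to CD3 and CD28 in 1 ng/mL human IL-2. They were then grown in 50 ng/mL human IL-15 and 10 ng/mL human IL-7, for 4 days (week 1) or 25 days (week 4). Every library carries the label IL7/IL15, so all of them share these cytokines, and there was no group without them. Per the labels' protocols, polyclonal cells from albino B6 mice were activated for 72 h and transgenic cells of the Marilyn-BLITC and MataHari-BLITC lines for 24 h. The labels do not say which library came from which cells, nor which animal or culture gave a library. P-values therefore cover no more than the spread among these libraries, part of which may be technical. At both times the cells had been sorted to above 97% for CD44 and a further surface marker of central memory cells. The numbers in the library titles fall into 2 ranges, a lower one, A (replicates 1 to 3 of each time), and a higher one, B (replicates 4 and 5), and this range was a term in the model.

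After activation, a CD8 T cell enlarges, divides and takes up nutrients, and then either dies or returns to rest as a memory cell. IL-7 and IL-15 signal through receptors that share the common gamma chain, the kinases JAK1 and JAK3, and STAT5, and they keep resting memory CD8 cells alive and slowly dividing. Return to rest is known to involve less anabolic metabolism, more autophagy, and factors that restrain growth, such as the BTG and KLF proteins.

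Libraries held 13.3 to 28.3 M counted reads each, and 12402 genes passed the filter on low counts, of 23058 with a count in a CD8 library. Expression is given as CPM on TMM-scaled library sizes (counts scaled to a common total), in the order of replicates 1 to 5. Libraries of 1 time were not equally alike. The chi-square per degree of freedom between replicates ran from 5.90 (week 1 replicates 4 and 5) to 79.0 (week 1 replicates 3 and 4), so no pair agreed within sampling noise. On principal components (PC) of the 1000 genes with the largest variance, 3 libraries stood apart from the others of their time. Week 1 replicate 3 lay at -0.70 on PC1, where the other week 1 libraries lay between -39.4 and -29.1. Week 4 replicates 1 and 2 lay at 10.9 and 4.54 on PC1 and at 32.8 and 40.2 on PC2, where the other week 4 libraries lay between 35.9 and 41.8 and between -13.7 and -5.5. Genes of S phase, mitosis and replication histones took 4.00, 3.72, 1.90, 4.23 and 4.33% of the counts in week 1 and 1.47, 1.5, 1.59, 1.29 and 1.26% in week 4. Week 1 replicate 3 thus held a share nearer to week 4 than to the other week 1 libraries, and the groups did not overlap.

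**Figure D1:**
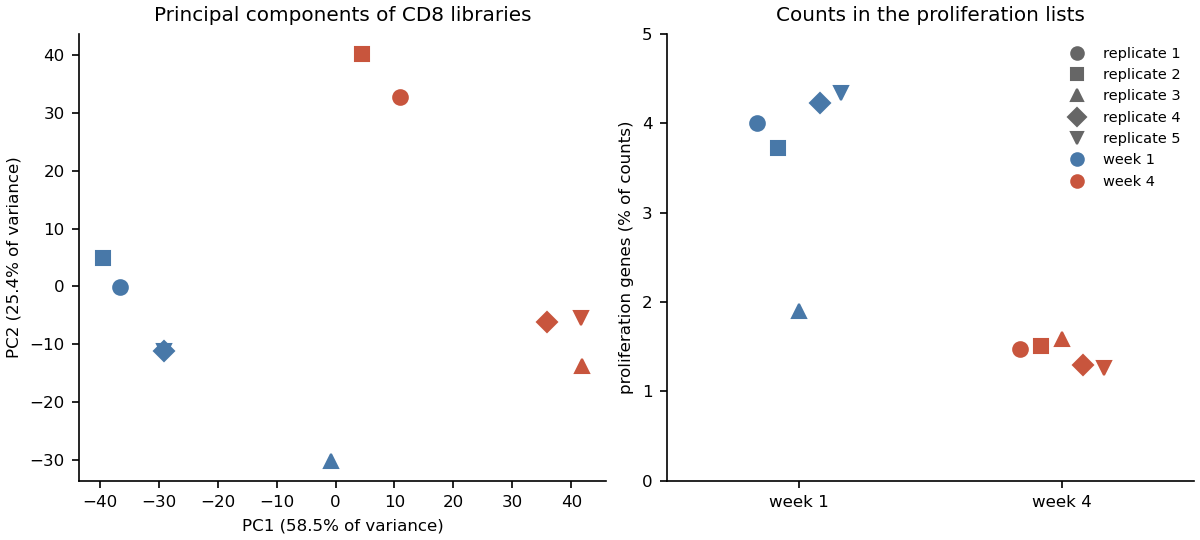
Left, the 10 CD8 libraries on the first 2 principal components of the 1000 genes with the largest variance, where the axes give the share of variance. Right, the share of each library's counts (%) that fell on genes of the proliferation lists. Colour marks the time and shape the replicate: week 1 replicate 3, at 1.90%, lies away from the other week 1 libraries (3.72 to 4.33%) in both panels.

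Defining markers of several other cell types were low or absent. Values given here as ranges are CPM on plain library totals. Cd4 was at most 0.585 CPM in week 1 and at 0 in every week 4 library, and Lyz2 (macrophages) and Hba-a1 (erythroid cells) were at 0 in all 10. The 4 CD4 T cell markers together summed to 18.9 to 56.0 CPM in week 1 and 4.83 to 55.6 CPM in week 4. Among them, Zbtb7b had means of 39.1 and 25.0 CPM on the same scale. Erythroid and platelet markers summed to 1.36 to 2.89 CPM in week 1 and 2.42 to 4.47 CPM in week 4. The summed level of 12 macrophage markers ran from 12.5 to 25.5 CPM in week 1 and from 9.04 to 26.5 CPM in week 4, with 5 of the 12 at 0 in each group. Summed NK cell markers ran from 232 to 386 CPM in week 1 and from 199 to 421 CPM in week 4, B cell markers from 165 to 482 and from 73.9 to 220.4 CPM. Dendritic cell markers ran from 143 to 380.1 and from 267 to 443 CPM. In each of these the groups overlapped. The 9 markers of NKT and MAIT cells summed to 19.95 to 49.8 CPM in week 1 and 175 to 338 CPM in week 4, of which Tmem176a and Tmem176b made 74.5 to 144 and 89.8 to 170 CPM in week 4. Zbtb16, the defining factor of NKT cells, was at most 0.0754 CPM in week 1 and at 0 in week 4. The gamma delta receptor segment Tcrg-C1 rose from 10.3 ± 5.47 to 34.0 ± 13.2 CPM (SD, n = 5 each; log2 fold change 1.71, adjusted p 0.00934). Trdc was between 4.78 and 13.9 CPM in all libraries, and the 6 gamma delta markers summed to 56.9 to 79.8 CPM in week 1 and 61.6 to 118 CPM in week 4. The part of such cells in the results was not tested. In bulk RNA, fewer cells of a type and less RNA per cell cannot be told apart.

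At week 4, 1855 genes were higher and 2061 lower (adjusted p under 0.05 in the quasi-likelihood test of edgeR), which is 15% and 16.6% of those tested. Of the 235 tested members of the proliferation lists, 224 were lower and 1, Hist3h2a, was higher. Outside these lists the counts were 1854 and 1837. The part of proliferation genes in the other changes was not tested. Every week 4 library was above every week 1 library for 11% of tested genes and below for 10.4%. Without week 1 replicate 3, which stood apart, 2827 genes were higher and 2841 lower. Without week 4 replicates 1 and 2, 1670 were higher and 2097 lower. The median log2 fold change of all tested genes was 0.007. For each gene list that follows, shares may be read against the 15% higher and 16.6% lower over all genes. Where leaving out 1 library, or week 4 replicates 1 and 2 together, moved a list's count by over 1.5 times, the moved count is given, and likewise a printed median. The same holds for a fit that blocks on 5 pairs of neighbouring title numbers, 1 library of each time (called the block). Calls over all genes moved too: leaving out 1 library gave 1260 to 2827 higher and 1455 to 2841 lower. A moved list count is thus not by itself particular to its list.

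The 2 title ranges share no library. Over 12324 genes tested in both, 228 were higher at week 4 within range A alone (1.85%) and 3026 within range B alone (24.6%). Of these, 205 were higher in both, which is 89.9% of the range A genes and 6.77% of the range B genes. Another 285 were lower within range A (2.31%) and 3129 within range B (25.4%), with 266 in both, or 93.3% and 8.50% of each. The range A genes kept their direction in range B in 215 of 228 and 283 of 285 cases, and the range B genes in range A in 2533 of 3026 (83.7%) and 2705 of 3129 (86.4%). The median of 14 of the 42 lists described below had opposite signs in the 2 ranges, differences that were not tested. Outside the proliferation lists, 188 of 207 genes that were lower in range A were also lower in range B (90.8%). Only 6 genes were higher within range A and lower within range B, and 1, P2rx4, a purine receptor channel named here because of that value, was lower in A and higher in B. The test of the difference between the ranges, over all 12402 genes, called 1 gene (0.00806%), Egr1, and 1002 genes had an unadjusted p under 0.05. DESeq2 called 117 and limma-voom 0. With 3 and 2 libraries a time in the ranges, so low a count does not show that the changes were alike.

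**Figure D2:**
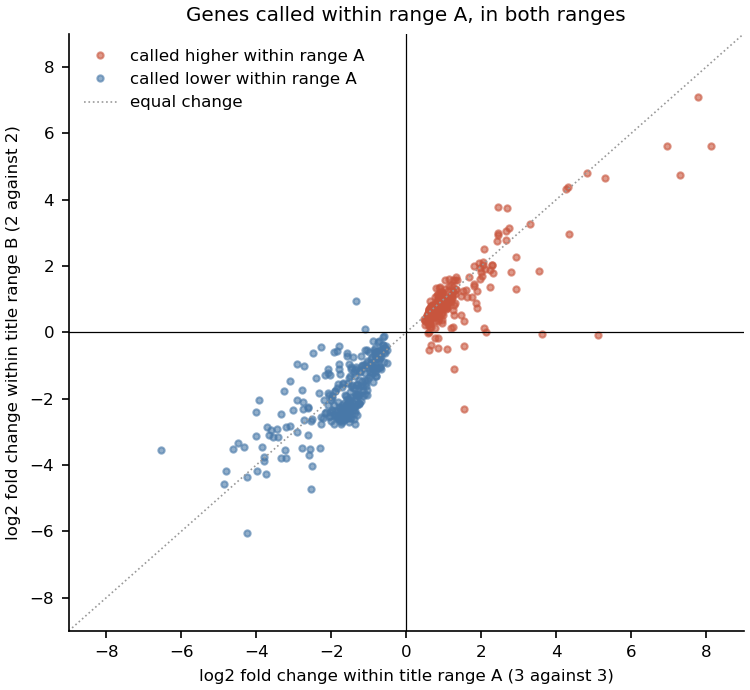
Log2 fold change of week 4 over week 1 within title range A (x axis, 3 libraries against 3) and within title range B (y axis, 2 against 2) for the genes called within range A alone. Points are genes and the dotted line marks equal change: 215 of 228 genes called higher and 283 of 285 called lower had the same direction in range B.

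**Figure D3:**
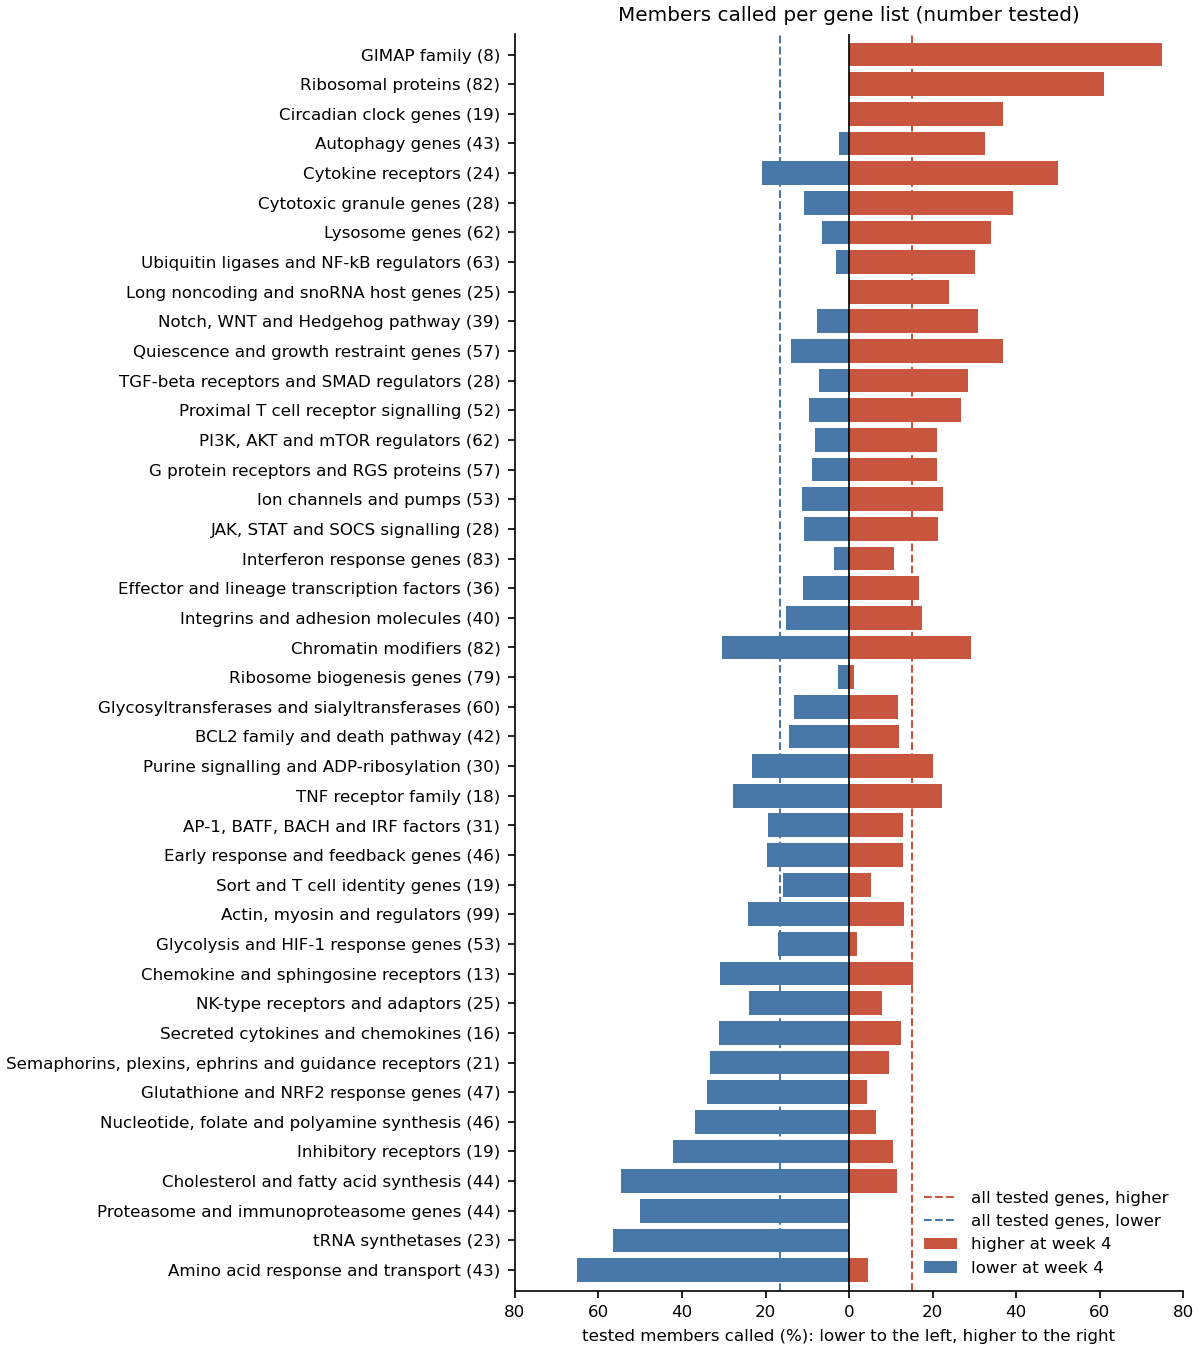
Share of tested members (%) called higher (right, red) and lower (left, blue) at week 4 for 42 gene lists, with the number of tested members in brackets. Dashed lines mark the shares over all tested genes, 15% higher and 16.6% lower. GIMAP, ribosomal protein and clock genes stand at the top, and amino acid, tRNA synthetase and proteasome genes at the bottom.

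The genes for CD44, CD8 alpha and CD3 epsilon did not pass the test. Cd8a, a chain of the CD8 coreceptor, was at 842, 749, 1302, 914 and 955 CPM in week 1 and 732, 635, 1591, 1169 and 1175 CPM in week 4 (log2 fold change 0.15 with SE 0.25 and adjusted p 0.678). Both replicates 3 were high, and the groups overlapped. Cd44, a marker of the sort (log2 fold change -0.20 with SE 0.16 and adjusted p 0.369), and Cd3e of the receptor complex (log2 fold change 0.08 with SE 0.11 and adjusted p 0.582) did not pass the test. Of 19 tested identity genes, 1, Ptprc, was called higher (5 without week 1 replicate 3, 4 without week 4 replicates 1 and 2, and 2 with the block). Trbc1, a receptor constant segment, and Cd5 and Cd6, scavenger receptor proteins that damp receptor signals, were lower. Cd5 was at 135, 125, 109, 124 and 128 CPM in week 1 and 71.0, 74.8, 55.6, 63.5 and 72.3 CPM in week 4 (log2 fold change -0.88 with SE 0.10 and adjusted p 0.000313), with no overlap.

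Among receptor chains for the 2 culture cytokines, the chain that binds IL-7 fell, while the chain that both receptors share was slightly higher. Il7r, the IL-7 receptor's own chain, was at 104, 141, 36.1, 64.2 and 45.9 CPM in week 1 and 15.4, 18, 8.51, 15.6 and 6.60 CPM in week 4. Every week 4 library was below every week 1 library, and the fall was 5.94-fold (log2 fold change -2.57 with SE 0.39 and adjusted p 0.00140). Il2ra, the high-affinity IL-2 receptor chain, was at 383, 496, 748, 412 and 338 CPM in week 1 and 131, 137, 187, 205 and 304 CPM in week 4. Here too the groups did not overlap, with week 4 replicate 5 the highest of its time (log2 fold change -1.33 with SE 0.29 and adjusted p 0.00681), but without week 4 replicates 1 and 2 the adjusted p was 0.0521. Il2rg, the shared gamma chain, was higher with log2 fold change 0.30 and adjusted p 0.0147. The other chains of the IL-15 receptor were called higher less firmly, Il2rb with log2 fold change 0.37 and adjusted p 0.0305 and Il15ra with log2 fold change 0.36 and adjusted p 0.0262. The Il2rb call was lost without week 1 replicate 1, 2, 4 or 5 or week 4 replicate 4 (adjusted p 0.0605 to 0.0802). The Il15ra call was lost without week 1 replicate 2, 4 or 5, week 4 replicate 1 or 5, or week 4 replicates 1 and 2 (0.0623 to 0.107). Il27ra, the receptor of IL-27, rose from 138 ± 9.38 to 218 ± 25.9 CPM (log2 fold change 0.66 with SE 0.10 and adjusted p 0.00102). Ifngr2, a chain of the interferon gamma receptor, rose from 29.5 ± 4.22 to 51.0 ± 8.36 CPM (log2 fold change 0.80 with SE 0.12 and adjusted p 0.00121). Of 24 tested cytokine receptor genes, 12 were higher and 5 lower, with a median log2 fold change of 0.30. The other 3 that fell were Il6st, Il12rb2 and Il1rl2. The 12 became 5 without week 1 replicate 4 or 5, 6 without week 1 replicate 2 and 7 without week 4 replicate 4. Over all genes, the same fits called 1260 to 1471 higher, against 1855 with all libraries. Downstream, Jak1, the kinase that these receptors share, was at 723, 727, 841, 742 and 719 CPM in week 1 and 1039.8, 1066.1, 1121, 1082 and 1014 CPM in week 4 (log2 fold change 0.5 with SE 0.06 and adjusted p 0.000603), with no overlap and the highest week 1 level in replicate 3. Of 28 JAK, STAT and SOCS genes, 6 were higher and 3 lower. The 6 became 3 without week 1 replicate 1, 4 or 5 or week 4 replicate 1, and 2 without week 4 replicates 1 and 2. The 3, among them Ptpn6 and Pim3, became 5 without week 1 replicate 3 and 7 without week 4 replicates 1 and 2.

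Several receptors of activated T cells fell. Tnfrsf8, which encodes CD30, a TNF receptor of activated lymphocytes, was at 20.9, 53.9, 1.40, 18.2 and 8.85 CPM in week 1 and 0.952, 0.999, 0.104, 0.200 and 0.217 CPM in week 4. No library overlapped, but week 1 replicate 2 held by far the most and replicate 3 only 1.40 CPM (log2 fold change -5.42 with SE 0.91 and adjusted p 0.00207; -4.76 without week 1 replicate 2 and -6.53 without week 4 replicates 1 and 2). Tnfrsf4, the costimulatory receptor OX40, fell from 22.8 ± 6.44 to 7.28 ± 1.41 CPM (log2 fold change -1.64 with SE 0.22 and adjusted p 0.000682). Tnfrsf26, a TNF receptor of the mouse with close homologues, rose from 37.9 ± 6.23 to 81.4 ± 7.25 CPM (log2 fold change 1.11 with SE 0.10 and adjusted p 0.000156). Of 18 tested members of the family, 4 were higher (Tnfrsf14, Tnfrsf22, Tnfrsf23 and Tnfrsf26) and 5 lower (Tnfrsf4, Tnfrsf8, Tnfrsf13b, Tnfrsf21 and Fas). Tnfrsf22, Tnfrsf23 and Tnfrsf26 are close neighbours with similar sequence, and how reads were divided among them is uncertain. The 5 became 3 without week 1 replicate 2 or week 4 replicate 1 or 4. Pdcd1, the inhibitory receptor PD-1, was at 19.5, 21.7, 5.99, 11.5 and 11.8 CPM in week 1 and 1.80, 3.44, 0.261, 0.280 and 0.391 CPM in week 4, with no overlap and the lowest levels in week 4 replicates 3 to 5 (log2 fold change -3.75 with SE 0.65 and adjusted p 0.00241; -5.35 without week 4 replicates 1 and 2). Lag3, another inhibitory receptor, was at 142, 194, 32.5, 79.6 and 78.7 CPM in week 1 and 27.1, 39.5, 0.626, 2.56 and 2.08 CPM in week 4, where week 1 replicate 3 overlapped with week 4 replicate 2 (log2 fold change -3.38 with SE 0.92 and adjusted p 0.0196). It lost its call without week 1 replicate 2 (adjusted p 0.0537) or week 4 replicate 4 or 5 (0.0619 and 0.0563), and was -5.77 without week 4 replicates 1 and 2. Vsir, the inhibitory receptor VISTA, moved the other way, from 281 ± 28 to 456.5 ± 92.5 CPM (log2 fold change 0.69 with SE 0.14 and adjusted p 0.00488). Of 19 inhibitory receptor genes, 8 were lower and 2, Cd200r4 and Vsir, higher (5 without week 4 replicate 3 or with the block). The median was -0.37, but -1.0 without week 4 replicates 1 and 2 and -0.24 without week 4 replicate 4.

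Integrin and adhesion genes were called about as often as all genes: of 40, 7 were higher (17.5%) and 6 lower (15%). Itgae, the CD103 integrin chain of cells in epithelia, was at 12.2, 10.6, 5.12, 6.50 and 8.31 CPM in week 1 and 0.493, 0.499, 1.10, 0.280 and 0.478 CPM in week 4. The groups were clearly apart, with the highest week 4 value in replicate 3 (log2 fold change -3.94 with SE 0.35 and adjusted p 0.000156). Cd9, a tetraspanin, fell from 16.8 ± 2.94 to 2.73 ± 0.812 CPM (log2 fold change -2.61 with SE 0.20 and adjusted p 0.000131), and Cd81, a related tetraspanin, was at 8.41, 4.96, 1.92, 5.50 and 2.29 CPM in week 1 and 0.458, 0.222, 0, 0.0400 and 0.0434 CPM in week 4 (log2 fold change -4.88 with SE 0.71 and adjusted p 0.00106; -5.84 without week 4 replicate 1 and -6.92 without replicates 1 and 2). L1cam, an adhesion molecule of the immunoglobulin family, rose from 10 ± 2.22 to 30.7 ± 4.72 CPM (log2 fold change 1.64 with SE 0.16 and adjusted p 0.000228). The count of 7 higher became 4 without week 1 replicate 1, week 4 replicate 1, or week 4 replicates 1 and 2 together, and 12 without week 1 replicate 3 or with the block. The 6 became 11 without week 4 replicates 1 and 2. Among chemokine and sphingosine receptors, 2 of 13 were higher (S1pr4 among them) and 4 lower (Ccr4, Ccr9, Cxcr5 and Ccrl2). The 2 became 5 with the block, 4 without week 4 replicate 3 and 1 without any other library but week 1 replicate 3 or week 4 replicate 2. Ccr9, the receptor for gut homing, was at 2.89, 1.01, 3.03, 1.96 and 1.98 CPM in week 1 and 0.0705, 0.0555, 0.104, 0.160 and 0.0434 CPM in week 4 (log2 fold change -4.54 with SE 0.44 and adjusted p 0.000218), and Cxcr5, the receptor for B cell follicles, at 6.10, 4.36, 2.10, 3.46 and 4.65 CPM in week 1 and 0.352, 0.167, 0.313, 0.200 and 0.521 CPM in week 4 (log2 fold change -3.70 with SE 0.39 and adjusted p 0.000255). Both were low throughout and did not overlap between the groups. NK-type receptors counted 2 higher, Hcst and Pilrb1 (5 with the block), and 6 lower of 25 (3 lower without week 1 replicate 1). Hcst, the adaptor DAP10 of the receptor NKG2D, rose from 54.3 ± 12.3 to 106 ± 9.34 CPM (log2 fold change 0.97 with SE 0.14 and adjusted p 0.000915).

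Of 46 early response and feedback genes, 6 were higher (13%) and 9 lower (19.6%), near the shares over all genes. Spry1, a feedback inhibitor of the RAS pathway, was at 4.84, 4.12, 12.4, 5.75 and 5.57 CPM in week 1 and 0.458, 0.333, 0.522, 0.801 and 0.478 CPM in week 4. The groups were far apart, with week 1 replicate 3 the highest (log2 fold change -3.63 with SE 0.38 and adjusted p 0.000270). Dusp4, a phosphatase of MAP kinases, fell from 16.1 ± 5.75 to 2.10 ± 0.996 CPM (log2 fold change -2.94 with SE 0.38 and adjusted p 0.000607). Nr4a1, an orphan nuclear receptor that follows receptor signal strength, was at 3.52, 3.64, 23.9, 5.78 and 5.87 CPM in week 1 and 0.529, 0.111, 1.77, 2.32 and 1.39 CPM in week 4. Its week 1 level was highest in replicate 3 (log2 fold change -2.83 with SE 0.78 and adjusted p 0.0216; -1.91 without that library), and the adjusted p was 0.0564 without week 4 replicate 1 and 0.0810 without week 4 replicates 1 and 2. Nr4a3 of the same family fell from 12.2 ± 4.95 to 4.65 ± 2.12 CPM (log2 fold change -1.39 with SE 0.28 and adjusted p 0.00525). Jun, a subunit of AP-1, rose, with 148, 129, 173, 131 and 134 CPM in week 1 and 266, 269, 184, 247 and 272 CPM in week 4 and no overlap, though week 4 replicate 3 lay near week 1 (log2 fold change 0.79 with SE 0.13 and adjusted p 0.00180).

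Egr1, an early response gene, was the 1 gene called in the test of the difference between the title ranges. It was at 17.4, 27.2, 28.2, 70.3 and 90.8 CPM in week 1 and 62.6, 38.5, 65.0, 10.8 and 11.4 CPM in week 4. In range A the week 4 libraries were higher (log2 fold change 1.19), and in range B they were lower (-2.86), a difference of -4.05 (adjusted p 0.0350).

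Of 52 genes of proximal T cell receptor signalling, 14 were higher and 5 lower (Ptpn6, Cd5, Cd6, Matk and Ppp3cb). Ptprc, the CD45 phosphatase that primes the receptor's kinases, rose from 2462 ± 286 to 3218 ± 134 CPM (log2 fold change 0.39 with SE 0.09 and adjusted p 0.00791). Nfatc2, a calcium-regulated transcription factor, rose from 149.5 ± 12.1 to 209 ± 23.2 CPM (log2 fold change 0.49 with SE 0.08 and adjusted p 0.00208) and Ppp3ca, the calcineurin subunit that activates it, from 96.0 ± 11.9 to 149.7 ± 22.9 CPM (log2 fold change 0.63 with SE 0.11 and adjusted p 0.00221). Ptpn6, the inhibitory phosphatase SHP-1, fell from 201 ± 30.7 to 129 ± 8.03 CPM (log2 fold change -0.63 with SE 0.11 and adjusted p 0.00210). Matk, a kinase that restrains SRC-family kinases, was at 21.3, 30.4, 56.0, 36.5 and 27.2 CPM in week 1 and 3.10, 2.72, 5.95, 6.88 and 1.87 CPM in week 4, with no overlap and week 1 replicate 3 the highest (log2 fold change -3.06 with SE 0.41 and adjusted p 0.000682). Among the factors of the AP-1, BATF, BACH and IRF families, 4 of 31 were higher (Bach1, Jun, Maf and Irf3; 9 without week 1 replicate 3) and 6 lower. Irf8, which acts in effector differentiation, was at 123, 114, 204, 100.1 and 93.1 CPM in week 1 and 43.9, 48.2, 20.4, 15.6 and 22.7 CPM in week 4, with no overlap and the highest value in week 1 replicate 3 (log2 fold change -2.12 with SE 0.26 and adjusted p 0.000497). Irf4, which is induced in step with receptor signals, fell from 89.9 ± 28.6 to 43.2 ± 15.7 CPM (log2 fold change -1.05 with SE 0.27 and adjusted p 0.0162). Of 36 effector and lineage transcription factors, 6 were higher and 4 lower (Zeb2, Ikzf2, Zfp683 and Hif1a; 8 without week 4 replicates 1 and 2, and 7 with the block). Ikzf2, the factor Helios, fell from 15.1 ± 4.20 to 4.73 ± 1.03 CPM (log2 fold change -1.64 with SE 0.22 and adjusted p 0.000772). Hopx, a homeodomain protein of effector memory cells, rose from 122 ± 19.6 to 205 ± 26.2 CPM (log2 fold change 0.75 with SE 0.11 and adjusted p 0.00123).

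Of 57 tested genes of quiescence and growth restraint, 21 were higher (36.8%) and 8 lower (14%), with a median log2 fold change of 0.31. Without week 1 replicate 1, 2, 4 or 5, or week 4 replicate 2 or 5, the count of lower members was 4 or 5. Mxd4, a repressor that opposes MYC at its binding sites, was at 60.6, 63.6, 63.1, 53.1 and 56.3 CPM in week 1 and 179, 185, 116, 152 and 174 CPM in week 4. Every week 4 library lay well above every week 1 library, and replicate 3 was the lowest of week 4 (log2 fold change 1.44 with SE 0.13 and adjusted p 0.000156). Zfp36l2, an RNA-binding protein that speeds the decay of short-lived mRNAs, rose from 298 ± 11.7 to 484 ± 69.3 CPM (log2 fold change 0.70 with SE 0.10 and adjusted p 0.00105). Btg1, an antiproliferative factor of resting T cells, was at 104, 104, 214, 117 and 118 CPM in week 1 and 222, 187, 264, 243 and 276 CPM in week 4 (log2 fold change 0.86 with SE 0.21 and adjusted p 0.0134). The groups overlapped, since week 1 replicate 3 lay within the week 4 range. Cdkn2a and Cdkn2b, which encode inhibitors of the cyclin D kinases, were low but rose, Cdkn2a from 3.41 ± 1.65 to 13.9 ± 5.26 CPM (log2 fold change 2.10 with SE 0.23 and adjusted p 0.000296) and Cdkn2b from 1.28 ± 0.608 to 8.04 ± 2.65 CPM (log2 fold change 2.67 with SE 0.34 and adjusted p 0.000620). Rb1 (log2 fold change -0.94 and adjusted p 0.00890) and Rbl1 (log2 fold change -1.07 and adjusted p 0.00970), which hold back E2F factors, were among the members that fell. Both are also known to vary with the cell cycle, whose part in these falls was not tested.

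The GIMAP family encodes GTPases of lymphocytes that support survival, and 6 of its 8 members were higher and none lower (median 0.48). Gimap3 (chr6:48764464-48770851, GRCm38) was at 948, 936, 974, 827 and 827 CPM in week 1 and 2026, 1897, 1694, 1839 and 1640.3 CPM in week 4. Every week 4 library lay far above every week 1 library, and the rise was 2.02-fold (log2 fold change 1.01 with SE 0.07 and adjusted p 9.00e-05). Gimap8 rose from 251 ± 26.6 to 389.9 ± 33.3 CPM (log2 fold change 0.64 with SE 0.07 and adjusted p 0.000255), also with no overlap. Gimap4 was at 977, 946, 1385, 860.3 and 876 CPM in week 1 and 1533, 1351, 1430.3, 1351 and 1404 CPM in week 4, where week 1 replicate 3 reached the week 4 range (log2 fold change 0.5 with SE 0.11 and adjusted p 0.00924). The family lies in 1 cluster on chromosome 6 and its members are close homologues, and per the counting command reads that mapped to several places were not counted.

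Regulators of PI3K and mTOR, the kinases that drive growth, were higher in 13 of 62 cases and lower in 5 (Pik3r6, Rhebl1, Depdc5, Eif4ebp1 and Igf1r). The 5 became 1 without week 1 replicate 1, 2, 4 or 5 or week 4 replicate 3, 4 or 5, 3 without week 4 replicate 1, and 9 without week 1 replicate 3. Pik3ip1, a brake on PI3K, was at 71.5, 89.1, 58.3, 87.9 and 85.6 CPM in week 1 and 132, 121, 130.4, 171 and 204 CPM in week 4. The groups did not overlap (log2 fold change 0.93 with SE 0.12 and adjusted p 0.000602). Sesn1, a leucine sensor that restrains mTORC1, rose from 57.0 ± 9.91 to 95.7 ± 11.4 CPM (log2 fold change 0.75 with SE 0.13 and adjusted p 0.00235). Rptor, a scaffold of mTORC1 itself, also rose, from 71.2 ± 3.32 to 112 ± 11.3 CPM (log2 fold change 0.66 with SE 0.08 and adjusted p 0.000505), as did Pik3r5, a regulatory subunit of PI3K gamma (log2 fold change 0.67 with SE 0.07 and adjusted p 0.000283).

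Genes of the amino acid response and of amino acid transport fell most widely of the lists described: 28 of 43 tested were lower and 2 higher, with a median log2 fold change of -0.67. Of 23 cytosolic tRNA synthetase genes, 13 were lower and none higher (median -0.36). The 13 became 8 without week 4 replicate 4 and 7 without week 4 replicates 1 and 2. Many of these genes are known targets of ATF4, a factor made when amino acids run short. ATF4 pairs with C/EBP proteins on an element whose core reads TGATGNAA. The 250 bases before the annotated gene start were searched for these letters on both strands, in RefSeq windows of GRCm38.p6. They were found for 222 of 9210 tested genes with a window (2.41%; 3.91% of all 27025 windows), for 5 of 34 amino acid genes (14.7%) and for 3 of 15 tRNA synthetase genes (20%). Of those 8 genes, 7 were lower at week 4: Chac1, Asns, Pycr1, Got1, Aars, Gars and Tars. Vldlr was not called. In the whole lists, with or without the letters, 28 of 43 and 13 of 23 were lower, and over all tested genes 16.6%. Calls among the 222 tested genes with the letters were not counted. Both lists hold known targets of ATF4, so a share above that over all genes is no independent finding. A match describes letters in a window and is no evidence of binding. The windows of Asns, Chac1, Pycr1 and Aars are shown 5′ to 3′ on the gene's strand, with the match in capitals, since they belong to the members with the values given next. They lie at chr6:7693210-7693459 (Asns, minus strand), chr2:119350992-119351241 (Chac1, plus), chr11:120643749-120643998 (Pycr1, minus) and chr8:111033592-111033841 (Aars, plus). In Chac1 and Aars the match is on the opposite strand and so reads TTNCATCA. It begins 23 bases before the gene start in Asns, 193 in Chac1, 103 in Pycr1 and 112 in Aars, whose window also holds 1 CACGTG that does not overlap it.
Asns: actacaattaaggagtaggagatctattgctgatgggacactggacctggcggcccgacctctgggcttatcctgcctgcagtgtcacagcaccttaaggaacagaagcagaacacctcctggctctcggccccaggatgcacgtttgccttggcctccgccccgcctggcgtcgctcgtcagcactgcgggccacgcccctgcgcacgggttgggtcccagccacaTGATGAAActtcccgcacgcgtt
Chac1: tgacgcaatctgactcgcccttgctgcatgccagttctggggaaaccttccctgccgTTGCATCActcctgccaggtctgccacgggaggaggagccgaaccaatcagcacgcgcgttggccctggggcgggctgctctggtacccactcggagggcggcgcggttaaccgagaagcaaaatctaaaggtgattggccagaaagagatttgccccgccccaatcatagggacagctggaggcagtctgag
Pycr1: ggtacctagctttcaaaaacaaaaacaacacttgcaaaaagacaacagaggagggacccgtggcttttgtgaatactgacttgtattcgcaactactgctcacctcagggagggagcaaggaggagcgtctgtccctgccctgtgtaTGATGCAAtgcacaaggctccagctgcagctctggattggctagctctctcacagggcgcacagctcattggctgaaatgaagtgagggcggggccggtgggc
Aars: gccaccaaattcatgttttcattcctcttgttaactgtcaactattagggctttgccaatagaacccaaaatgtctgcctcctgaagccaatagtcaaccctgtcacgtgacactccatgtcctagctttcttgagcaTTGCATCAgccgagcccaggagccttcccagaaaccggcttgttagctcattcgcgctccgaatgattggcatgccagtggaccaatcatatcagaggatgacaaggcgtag

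Asns, which makes asparagine, was at 94.8, 92.2, 28.3, 64.3 and 65.3 CPM in week 1 and 19.5, 19.5, 17, 15.4 and 17.6 CPM in week 4. The week 4 libraries lay close together, and week 1 replicate 3 was the lowest of its time (log2 fold change -1.95 with SE 0.28 and adjusted p 0.000978). Chac1, which degrades glutathione, was low, at 2.68, 3.94, 2.39, 2.07 and 1.91 CPM in week 1 and 0.211, 0.444, 0.0522, 0.160 and 0.304 CPM in week 4. There was no overlap between the times (log2 fold change -3.43 with SE 0.40 and adjusted p 0.000405). Pycr1, which makes proline, was at 7.62, 10.8, 1.05, 5.50 and 4.20 CPM in week 1 and 0.529, 0.555, 0.0522, 0.320 and 0.217 CPM in week 4, again lowest of its time in week 1 replicate 3 (log2 fold change -4.08 with SE 0.65 and adjusted p 0.00164; -4.73 without week 4 replicates 1 and 2). Aars, the alanyl-tRNA synthetase, was at 172, 188, 117, 173 and 169 CPM in week 1 and 70.2, 70.9, 78.6, 79.1 and 92.7 CPM in week 4 (log2 fold change -1.07 with SE 0.12 and adjusted p 0.000380). In each of these 4 genes the groups did not overlap. Atf4 itself fell from 209 ± 28.2 to 131 ± 12.9 CPM (log2 fold change -0.67 with SE 0.09 and adjusted p 0.000790). Slc7a5, the large neutral amino acid transporter that T cells induce on activation, was at 238, 229.9, 168, 244 and 248 CPM in week 1 and 68.5, 72.4, 106, 98.6 and 99.8 CPM in week 4. Its week 1 replicate 3 lay between the other week 1 libraries and week 4 (log2 fold change -1.34 with SE 0.14 and adjusted p 0.000241). Bcat1, the cytosolic enzyme that starts the breakdown of branched-chain amino acids, was at 24.4, 28.8, 7.10, 21.7 and 20.2 CPM in week 1 and 0.846, 1.61, 0.731, 0.280 and 0.347 CPM in week 4 and was one of the largest falls (log2 fold change -4.86 with SE 0.50 and adjusted p 0.000248; -5.49 without week 4 replicates 1 and 2). Mthfd2, a mitochondrial enzyme of folate metabolism, fell from 144 ± 26.1 to 57.0 ± 7.05 CPM (log2 fold change -1.33 with SE 0.13 and adjusted p 0.000218). Of the 2 members that rose, Bckdha and Slc36a1, the second, a lysosomal amino acid transporter, went from 20.8 ± 1.46 to 34.4 ± 2.32 CPM (log2 fold change 0.73 with SE 0.07 and adjusted p 0.000238). Week 1 replicate 3, which held the smallest share of proliferation genes of its time, was also lowest of its time in the list's mean level (log2(CPM + 1) -0.40 relative to the week 1 mean, against 0.06 to 0.14 in the others and -0.91 to -0.77 in week 4).

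**Figure D4:**
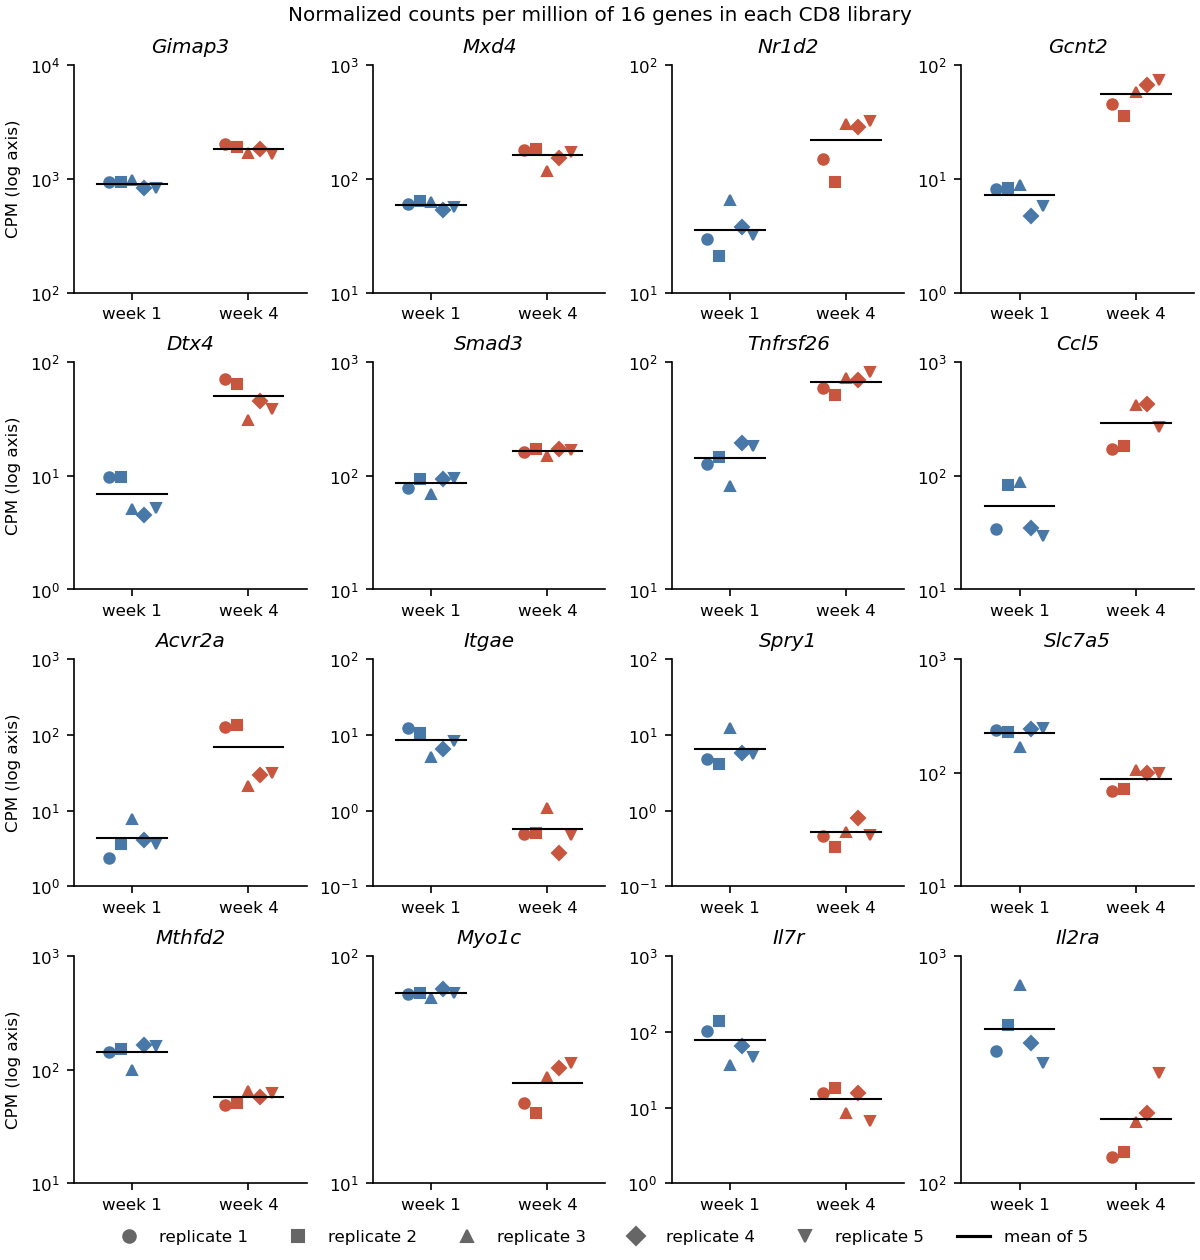
CPM (log axis) of 16 genes in each CD8 library at week 1 (blue) and week 4 (red), where shape marks the replicate and the line the mean of 5. The groups do not overlap for any of the 16, which was a condition for naming many of them. Over all tested genes, 11% had every week 4 library above week 1 and 10.4% every one below. Week 4 replicates 1 and 2 lie well above the other week 4 libraries for Acvr2a, and week 1 replicate 3 lies nearest to week 4 for Slc7a5 and Mthfd2.

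Other biosynthetic genes were lower too. In the cholesterol and fatty acid list, 24 of 44 were lower and 5 higher (median -0.47). Msmo1, a sterol demethylase, was at 115, 136, 125, 138 and 140.4 CPM in week 1 and 60.1, 60.8, 61.2, 66.2 and 79.1 CPM in week 4. Every week 4 library was below every week 1 library (log2 fold change -1.0 with SE 0.07 and adjusted p 0.000130). Scd1, a fatty acid desaturase, fell from 138 ± 66.5 to 40.6 ± 7.49 CPM (log2 fold change -1.66 with SE 0.30 and adjusted p 0.00285). The 5 that rose include genes that lower cell cholesterol. Mylip, a ligase that degrades the LDL receptor, rose from 13.8 ± 3.73 to 39.1 ± 6.37 CPM (log2 fold change 1.5 with SE 0.19 and adjusted p 0.000621). Nr1h3, the sterol-sensing receptor LXR alpha, which was low, rose from 0.435 ± 0.164 to 1.66 ± 0.648 CPM (log2 fold change 1.87 with SE 0.34 and adjusted p 0.00323). The other 3 were the sterol exporter Abcg1, the related receptor Nr1h2 and Acss2, which makes acetyl-CoA from acetate. The 5 became 2 without week 1 replicate 1, 4 or 5 or week 4 replicate 4, and 3 without week 1 replicate 2 or week 4 replicate 1. In nucleotide, folate and polyamine synthesis, 17 of 46 were lower (11 without week 4 replicates 1 and 2) and 3 higher (Mat2b, Sat1 and Tk2; 6 without week 1 replicate 3). Sms, the spermine synthase, fell from 52.4 ± 4.25 to 32.7 ± 3.23 CPM (log2 fold change -0.68 with SE 0.08 and adjusted p 0.000418).

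Of 47 glutathione and oxidative stress genes, 16 were lower and 2, Gsto1 and Txn2, higher. The 2 became 8 without week 4 replicates 1 and 2, 4 without week 1 replicate 3, and 1 without week 1 replicate 1, 2, 4 or 5 or week 4 replicate 4 or 5. Prdx4, a peroxidase of the endoplasmic reticulum, fell from 27.6 ± 3.76 to 9.54 ± 2.03 CPM (log2 fold change -1.54 with SE 0.16 and adjusted p 0.000241). Gclm, a subunit of the first enzyme of glutathione synthesis, fell from 34.8 ± 1.55 to 21.5 ± 3.01 CPM (log2 fold change -0.70 with SE 0.11 and adjusted p 0.00148). Proteasome genes counted 22 lower and none higher of 44, with a median of -0.28 (-0.18 without week 4 replicates 1 and 2). That count depended on many libraries: it was 8 without week 4 replicate 4, 7 without week 4 replicates 1 and 2, and 10 to 13 without week 1 replicate 1, 2, 4 or 5 or week 4 replicate 1 or 2. Over all genes, 1478 were lower without week 4 replicate 4 and 2097 without week 4 replicates 1 and 2, against 2061 with all libraries. Psmb7, a catalytic subunit, fell from 106 ± 7.17 to 75.0 ± 9.26 CPM (log2 fold change -0.5 with SE 0.09 and adjusted p 0.00304). Ribosome biogenesis genes were called in 3 of 79 cases, Imp3 higher and Lyar and Tcof1 lower. Their median was -0.20 within range A and 0.33 within range B, a difference that was not tested. The count higher was 19 without week 4 replicates 1 and 2, 8 without week 1 replicate 3 and 4 without week 4 replicate 2, and 0 with the block or without any other library but week 1 replicate 2. The count lower was 1 with the block and without week 1 replicate 1, 2, 4 or 5 or week 4 replicate 1, 2 or 4. Genes of the ribosomal proteins themselves were higher in 50 of 82 cases and lower in none, with a median of 0.31. That count was 33 without week 1 replicate 4. Rps28, a protein of the small subunit, was at 255, 251, 253, 256 and 289.9 CPM in week 1 and 379.6, 385, 383, 433 and 407 CPM in week 4. No libraries of the times overlapped (log2 fold change 0.61 with SE 0.06 and adjusted p 0.000214).

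Of 53 glycolysis and HIF-1 response genes, 9 were lower and 1, Pfkfb2, higher (median -0.31; 2 higher without week 4 replicate 1, 2, 3 or 5), but the median was 0.10 within range A and -1.0 within range B, and this difference of medians was not tested. It was -0.55 without week 4 replicates 1 and 2, -0.10 without week 4 replicate 5 and -0.20 without week 1 replicate 5. The 9 became 21 without week 4 replicates 1 and 2, 4 without week 1 replicate 4 or week 4 replicate 4, and 5 without week 1 replicate 2 or 5. Gapdh, a glycolytic enzyme, was at 1304, 1491, 1372, 1347 and 1382 CPM in week 1 and 1048, 1312, 884, 729 and 515 CPM in week 4, lowest in week 4 replicate 5 and overlapping with week 1 in week 4 replicate 2 (log2 fold change -0.67 with SE 0.17 and adjusted p 0.0159). Hif1a, which drives the glycolytic response to low oxygen, was at 342, 422, 328, 366 and 336 CPM in week 1 and 214, 197, 172, 201 and 216 CPM in week 4. Week 4 was apart from week 1 in every library (log2 fold change -0.84 with SE 0.09 and adjusted p 0.000315).

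Lysosome genes were higher in 21 of 62 cases and lower in 4, among them Glb1, Atp6v1a and Tmem192 (1 or 2 without week 1 replicate 1, 2, 4 or 5 or week 4 replicate 3, 4 or 5), with a median of 0.15 (0.23 without week 4 replicates 1 and 2). Psap, the precursor of proteins that help degrade sphingolipids, was at 427, 448, 427, 485 and 496 CPM in week 1 and 554, 548, 568, 600.2 and 643 CPM in week 4. The groups did not overlap (log2 fold change 0.35 with SE 0.05 and adjusted p 0.00136). Neu1, the lysosomal sialidase, rose from 29.5 ± 2.64 to 47.4 ± 3.95 CPM (log2 fold change 0.68 with SE 0.09 and adjusted p 0.000776). Cln3, a lysosomal membrane protein, was at 53.1, 58.3, 82.9, 57.0 and 61.7 CPM in week 1 and 137, 153, 81.6, 101 and 113 CPM in week 4, where week 4 replicate 3 lay at the level of week 1 replicate 3 (log2 fold change 0.90 with SE 0.18 and adjusted p 0.00447). Sgsh, which degrades heparan sulfate, was at 29.7, 33.5, 29.8, 29.8 and 27.9 CPM in week 1 and 43.5, 42.1, 65.2, 70.0 and 81.8 CPM in week 4. There was no overlap between the times (log2 fold change 0.98 with SE 0.17 and adjusted p 0.00240). TFEB, the factor that is known to switch on lysosome genes, binds an E-box, CACGTG, which MYC and CLOCK proteins bind too. These letters, which read the same on both strands, stood in the 250 bases before the start of 15 of 47 lysosome genes with a window (31.9%), against 923 of 9210 tested genes (10.0%; 6.86% of all windows). Of the 15, 8 were higher and 2 lower. In the whole list these counts were 21 and 4 of 62, and over all tested genes 15% and 16.6%. Calls among the 923 tested genes with the letters were not counted. The lysosome list holds genes of the kind that TFEB is known to switch on, so its higher share is no independent finding. CACGTG also stood before 4 of 36 autophagy genes (11.1%), none of them called, and 4 of 15 clock genes (26.7%), of which 1 was higher. Windows of 2 members that rose and of Glb1, a galactosidase with the motif that fell (log2 fold change -0.33 and adjusted p 0.0450), are shown with CACGTG in capitals, to set both directions side by side. The Glb1 call was lost without any 1 library but week 1 replicate 3 or week 4 replicate 2 (adjusted p 0.0539 to 0.112), and without the latter and week 4 replicate 1 together. They lie at chr7:126583237-126583486 (Cln3, minus strand), chr11:119355511-119355760 (Sgsh, minus) and chr9:114400828-114401077 (Glb1, plus). Cln3 holds 2 matches, the first of which shares 2 bases with a TGATGNAA match.
Cln3: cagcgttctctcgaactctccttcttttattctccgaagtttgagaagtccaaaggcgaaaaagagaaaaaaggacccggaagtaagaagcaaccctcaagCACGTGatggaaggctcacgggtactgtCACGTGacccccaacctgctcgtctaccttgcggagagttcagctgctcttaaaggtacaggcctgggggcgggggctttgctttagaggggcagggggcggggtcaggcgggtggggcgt
Sgsh: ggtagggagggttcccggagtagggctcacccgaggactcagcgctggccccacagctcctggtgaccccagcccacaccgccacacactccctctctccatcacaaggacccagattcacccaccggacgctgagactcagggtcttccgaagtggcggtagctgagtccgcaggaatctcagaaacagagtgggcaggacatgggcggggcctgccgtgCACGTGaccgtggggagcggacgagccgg
Glb1: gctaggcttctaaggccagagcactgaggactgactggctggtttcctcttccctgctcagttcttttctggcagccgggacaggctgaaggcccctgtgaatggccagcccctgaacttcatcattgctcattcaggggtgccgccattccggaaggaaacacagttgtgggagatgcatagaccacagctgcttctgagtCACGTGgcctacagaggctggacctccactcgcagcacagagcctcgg

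Of 43 autophagy genes, 14 were higher and 1, Gabarapl1, lower, with a median of 0.10. Without week 4 replicates 1 and 2, 8 were higher and 3 lower, and without week 1 replicate 4 or 5 or week 4 replicate 4 or 5 none was lower. With the block the adjusted p of Gabarapl1 was 0.0572. Atg2a, a lipid transfer protein of the growing autophagosome, was at 30.2, 31.7, 28.6, 32.5 and 31.7 CPM in week 1 and 51.0, 52.5, 41.2, 56.8 and 57.3 CPM in week 4, and the groups did not overlap (log2 fold change 0.74 with SE 0.09 and adjusted p 0.000406). Rb1cc1, a subunit of the kinase complex that starts autophagy, rose from 58.9 ± 2.21 to 75.4 ± 3.17 CPM (log2 fold change 0.36 with SE 0.06 and adjusted p 0.00246). No autophagic flux was measured.

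Of 82 chromatin modifier genes, 24 were higher (15 without week 4 replicates 1 and 2) and 25 lower. The 5 genes Kmt2a to Kmt2e, of a family known for methyltransferases of histone H3 lysine 4, were all among the higher ones. Kmt2d was at 408, 359.5, 307, 422 and 410.0 CPM in week 1 and 788, 854, 627, 841 and 746 CPM in week 4. No libraries of the times overlapped (log2 fold change 1.02 with SE 0.11 and adjusted p 0.000255), and Kmt2c rose from 150.1 ± 20.7 to 300.1 ± 35.9 CPM (log2 fold change 1.0 with SE 0.12 and adjusted p 0.000418). Ezh2, the methyltransferase of Polycomb complex 2, was at 255, 236, 128, 302 and 317 CPM in week 1 and 116, 113, 123, 92.3 and 90.2 CPM in week 4, with week 1 replicate 3 nearest to week 4 (log2 fold change -1.19 with SE 0.22 and adjusted p 0.00346), and its partner Suz12 fell from 293 ± 32.5 to 184 ± 24 CPM (log2 fold change -0.68 with SE 0.11 and adjusted p 0.00204). Ezh1, the form of resting cells, rose from 95.1 ± 15.1 to 143 ± 26.6 CPM (log2 fold change 0.58 with SE 0.15 and adjusted p 0.0168), but not without week 4 replicates 1 and 2 (0.34, adjusted p 0.0778). Suv39h2, a histone H3 lysine 9 methyltransferase, fell from 13.4 ± 1.91 to 4.01 ± 0.374 CPM (log2 fold change -1.74 with SE 0.14 and adjusted p 0.000156). Ezh2 and its partners are known to follow cell division, and proliferation genes fell too. The part of cell division in the falls of Ezh2, Suz12 and Suv39h2 was not tested. Satb1, a chromatin organizer of T cells, rose from 380.5 ± 45.6 to 586 ± 70.2 CPM (log2 fold change 0.62 with SE 0.07 and adjusted p 0.000279).

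Clock genes were higher in 7 of 19 cases and lower in none (1 lower without week 4 replicates 1 and 2), with a median of 0.26 (0.41 without week 1 replicate 3). Nr1d2, which encodes the repressor REV-ERB beta, was at 17.1, 14.4, 25.6, 19.5 and 17.9 CPM in week 1 and 38.7, 30.6, 55.2, 53.8 and 57.1 CPM in week 4, with no overlap and the lowest week 4 value in replicate 2 (log2 fold change 1.30 with SE 0.20 and adjusted p 0.00139). Nr1d1, which encodes REV-ERB alpha, was low, at 2.0, 1.67, 1.51, 1.71 and 1.30 CPM in week 1 and 4.12, 2.44, 8.88, 8.69 and 11.4 CPM in week 4, and also did not overlap (log2 fold change 2.03 with SE 0.38 and adjusted p 0.00338). Tef, a clock output factor, rose from 36.8 ± 4.77 to 64.6 ± 4.02 CPM (log2 fold change 0.81 with SE 0.09 and adjusted p 0.000381), and Clock itself from 32.2 ± 6.43 to 50.2 ± 5.13 CPM (log2 fold change 0.64 with SE 0.14 and adjusted p 0.00665). Per3 went from 4.64 ± 0.689 to 9.19 ± 3.25 CPM (log2 fold change 0.95 with SE 0.23 and adjusted p 0.0108). The labels give no time of day for the harvests.

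In the TGF-beta family, Acvr2a, a type 2 activin receptor, was at 2.37, 3.64, 7.86, 4.14 and 3.58 CPM in week 1 and 126, 133, 21.4, 29.4 and 31.6 CPM in week 4. Week 4 replicates 1 and 2 held far more than the other week 4 libraries, and all 5 were above week 1 (log2 fold change 3.80 with SE 0.56 and adjusted p 0.00114; 2.65 without those 2). Smad3, which carries TGF-beta signals to the nucleus, was at 77.8, 93.9, 69.6, 93.5 and 95.6 CPM in week 1 and 161, 172, 148, 172 and 168 CPM in week 4. Week 4 was apart from week 1 in every library (log2 fold change 0.94 with SE 0.09 and adjusted p 0.000214). Tgfb1, the ligand, fell from 278 ± 24.5 to 190.5 ± 18.8 CPM (log2 fold change -0.55 with SE 0.09 and adjusted p 0.00200). Of 28 TGF-beta pathway genes, 8 were higher and 2, Eng and Tgfb1, lower (1 without week 1 replicate 1, 2, 4 or 5 or week 4 replicate 4 or 5). The 8 became 5 with the block, and 3 to 5 without week 1 replicate 1, 2 or 5, without week 4 replicate 1, 2 or 4, or without week 4 replicates 1 and 2. In the Notch, WNT and Hedgehog list, 12 of 39 were higher and 3 lower (Notch1, Jag2 and Wnt10b). The 3 became 5 with the block, 6 without week 1 replicate 3, 7 without week 4 replicates 1 and 2, and 1 without week 1 replicate 2, 4 or 5 or week 4 replicate 5. Dtx4, a Deltex ligase that acts on Notch, was at 9.73, 9.79, 5.12, 4.53 and 5.26 CPM in week 1 and 70.6, 64.3, 30.9, 45.8 and 38.9 CPM in week 4. The groups did not overlap (log2 fold change 2.89 with SE 0.27 and adjusted p 0.000182). Znrf3, a ligase that removes WNT receptors, rose from 33.9 ± 4.18 to 56.1 ± 3.67 CPM (log2 fold change 0.73 with SE 0.09 and adjusted p 0.000611).

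Ubiquitin ligases and NF-kB regulators were higher in 19 of 63 cases and lower in 2, Tnip3 and Siah2 (6 with the block, 5 without week 4 replicate 3 or week 4 replicates 1 and 2, and 1 without week 1 replicate 4 or week 4 replicate 2 or 4). Asb2, an adaptor of a ubiquitin ligase that acts on filamins, was at 11.6, 3.29, 3.26, 1.5 and 4.88 CPM in week 1 and 137, 168, 7.57, 15.9 and 25.4 CPM in week 4. Week 4 replicates 1 and 2 were far above the other 3, and week 4 replicate 3 lay below week 1 replicate 1 (log2 fold change 3.62 with SE 0.81 and adjusted p 0.00805). Without those 2 libraries the value was 1.82 with an adjusted p of 0.103. Ikbkb, the kinase that releases NF-kB, was at 167, 149, 202, 159 and 154 CPM in week 1 and 220.1, 218, 279, 282 and 256 CPM in week 4. There was no overlap between the times (log2 fold change 0.60 with SE 0.11 and adjusted p 0.00379). Of 25 long noncoding RNA genes, 6 were higher (11 without week 1 replicate 3) and none lower (1 without week 1 replicate 3 or week 4 replicate 3). Neat1, the scaffold RNA of paraspeckles, was at 239, 279, 162, 292 and 242 CPM in week 1 and 695, 619, 558, 568 and 566 CPM in week 4, and every week 4 library was well above the highest week 1 value (log2 fold change 1.31 with SE 0.15 and adjusted p 0.000377). Pvt1, the RNA next to Myc, rose from 14.7 ± 0.902 to 27.1 ± 3.10 CPM (log2 fold change 0.88 with SE 0.10 and adjusted p 0.000418).

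Among all tested genes, the cytotoxic granule genes Gzmg and Gzmd had the largest fitted rises. Gzmg (chr14:56156582-56159579, GRCm38), a serine protease of the granzyme cluster, was at 0.158, 0.537, 0.0582, 0.0714 and 0.0763 CPM in week 1 and 111, 47.8, 6.68, 14 and 7.29 CPM in week 4. Week 4 replicates 1 and 2 held the most, and all week 4 libraries were above all week 1 libraries (log2 fold change 7.63 with SE 0.91 and adjusted p 0.000441; 8.29 without week 1 replicate 2, 6.84 without week 4 replicate 1 and 5.71 without week 4 replicates 1 and 2). Gzmd was at 0.316, 0.478, 0, 0.285 and 0.305 CPM in week 1 and 137, 80.3, 7.21, 12.3 and 17.1 CPM in week 4, with the same 2 libraries highest (log2 fold change 7.25 with SE 0.95 and adjusted p 0.000666; 6.64 without week 4 replicate 1 and 5.22 without replicates 1 and 2). Week 1 levels were at most 0.537 CPM for Gzmg and 0.478 CPM for Gzmd, so the size of both folds rests on few reads. The granzymes Gzmc to Gzmg are near-identical neighbours, and how their reads were divided among them is uncertain. Gzmb, the main granzyme of killer cells, was far more abundant and fell slightly, from 2202 ± 344 to 1609 ± 209 CPM (log2 fold change -0.44 with SE 0.12 and adjusted p 0.0200), a call that was lost without week 4 replicate 2 or 4, or replicates 1 and 2 (adjusted p 0.0614, 0.0545 and 0.0932). Serpinb9, which protects the killer from its own granzyme B, fell from 107 ± 13.5 to 71.0 ± 5.41 CPM (log2 fold change -0.59 with SE 0.08 and adjusted p 0.000746). Of 28 granule genes, 11 were higher (6 without week 4 replicates 1 and 2) and 3 lower (Gzmb, Serpinb6b and Serpinb9; 5 with the block and without week 1 replicate 3 or week 4 replicates 1 and 2). Among 16 secreted factors, 2 were higher (Ccl5 and Xcl1; 4 with the block) and 5 lower (Ifng, Il24, Tgfb1, Lif and Mif). Ccl5, a chemokine stored by memory CD8 cells, was at 33.8, 83.3, 88.4, 34.9 and 29.5 CPM in week 1 and 172, 183, 422, 427 and 267 CPM in week 4. No libraries of the times overlapped (log2 fold change 2.51 with SE 0.42 and adjusted p 0.00217). Ifng, the effector cytokine interferon gamma, was low and fell from 5.34 ± 1.86 to 1.64 ± 0.820 CPM (log2 fold change -1.69 with SE 0.27 and adjusted p 0.00180). Xcl1, a chemokine that draws dendritic cells, rose from 9.13 ± 1.41 to 26.4 ± 12.8 CPM (log2 fold change 1.52 with SE 0.34 and adjusted p 0.00839), with an adjusted p of 0.0865 without week 4 replicates 1 and 2.

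Interferon response genes depended on 1 library. Of 83, 9 were higher and 3 lower (Igtp and Pml among them; 6 without week 4 replicate 5), with a median of 0.03 (-0.07 to 0.37 with 1 library left out), below the background in both directions. Their mean log2(CPM + 1), relative to the week 1 mean, was -0.39, -0.41, 0.90, -0.06 and -0.04 in week 1 and 0.05, -0.08, 0.03, 0.09 and 0.42 in week 4. The highest level of all 10 libraries was thus in week 1 replicate 3. Without it, 44 of the genes were higher at week 4, with a median of 0.37, and without week 1 replicate 1 or 2 there were 5. Over all genes, 2827 were higher without week 1 replicate 3, against 1855 with all libraries. Shisa5, a death-associated protein of the endoplasmic reticulum, was at 1002, 1067, 1202, 1016 and 1078.2 CPM in week 1 and 1676, 1661, 1319.9, 1379.8 and 1596 CPM in week 4, with no overlap even so (log2 fold change 0.51 with SE 0.09 and adjusted p 0.00263). Pml, the core of nuclear bodies, fell from 163 ± 22.9 to 97.1 ± 6.68 CPM (log2 fold change -0.74 with SE 0.09 and adjusted p 0.000582).

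**Figure D5:**
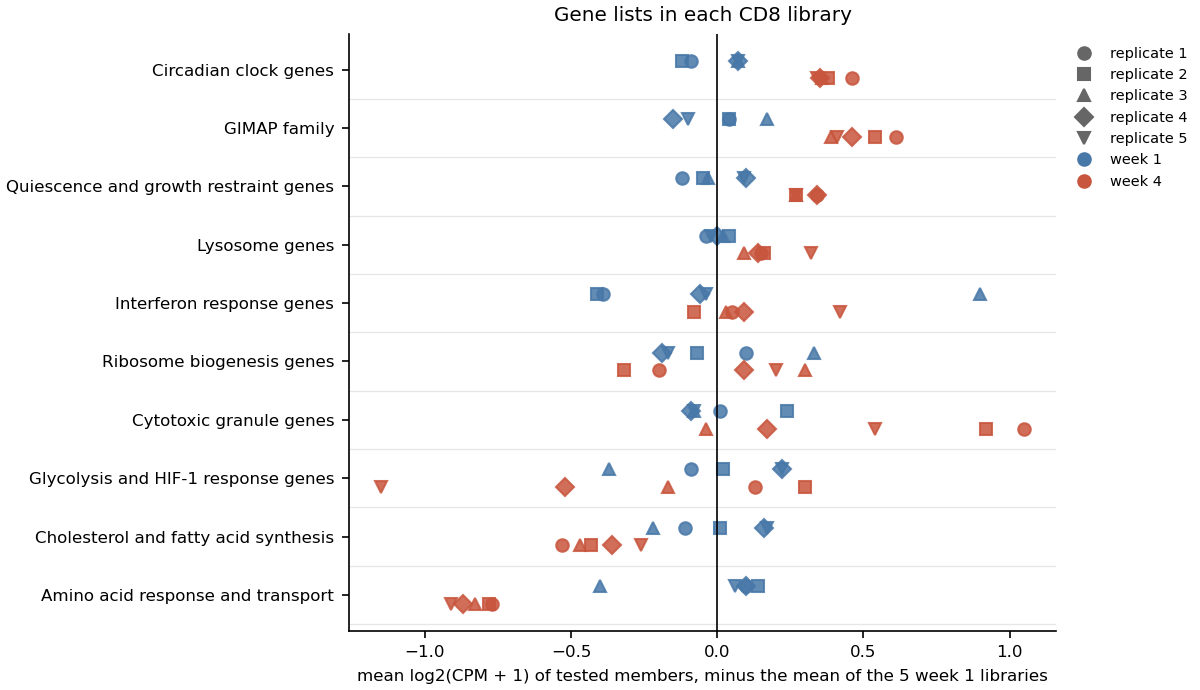
Mean log2(CPM + 1) over the tested members of 10 gene lists in each CD8 library (x axis), relative to the mean of the 5 week 1 libraries, with colour for the time and shape for the replicate. Clock and GIMAP genes separate the times in every library, while interferon response genes are highest in week 1 replicate 3 (0.90) and glycolysis genes spread from 0.30 (replicate 2) to -1.15 (replicate 5) within week 4.

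Of 42 BCL2 family and death pathway genes, 5 were higher (Bcl2, Mcl1, Bcl2l11, Bbc3 and Gsdmd) and 6 lower, shares of 11.9% and 14.3% that are below those over all genes. Mcl1, which blocks apoptosis, rose from 296 ± 21.2 to 465.1 ± 41.4 CPM (log2 fold change 0.65 with SE 0.08 and adjusted p 0.000602), and Bcl2l11, which encodes BIM, an opponent of BCL2, was at 82.5, 83.1, 140.4, 145 and 145 CPM in week 1 and 211, 177, 272, 298 and 305 CPM in week 4 (log2 fold change 1.09 with SE 0.17 and adjusted p 0.00134). Both had no overlap between the groups.

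Among enzymes of surface glycans, Gcnt2, which branches polylactosamine chains, was at 8.15, 8.24, 8.90, 4.75 and 5.72 CPM in week 1 and 45.6, 35.6, 58.0, 66.9 and 74.5 CPM in week 4, a 7.83-fold rise with no overlap (log2 fold change 2.97 with SE 0.26 and adjusted p 0.000156). St6galnac6, a sialyltransferase of gangliosides, fell from 11.4 ± 3.45 to 2.85 ± 0.488 CPM (log2 fold change -1.99 with SE 0.24 and adjusted p 0.000461). In this list 7 of 60 were higher and 8 lower (11.7% and 13.3%, below the shares over all genes). The 7 became 4 without week 1 replicate 4 or 5 or week 4 replicate 4 and 11 without week 1 replicate 3, and the 8 became 15 without week 4 replicates 1 and 2. Nt5e, the CD73 enzyme that makes adenosine outside the cell, was at 42.3, 50.1, 92.8, 74.5 and 67.7 CPM in week 1 and 167, 135, 403, 307 and 245 CPM in week 4. Week 4 was apart from week 1 in every library (log2 fold change 1.94 with SE 0.32 and adjusted p 0.00192). Enpp4, a nucleotide-cleaving ectoenzyme, rose from 47.9 ± 6.75 to 99.0 ± 13.1 CPM (log2 fold change 1.06 with SE 0.11 and adjusted p 0.000233). Nampt, which recycles NAD, fell from 162 ± 21.6 to 103 ± 12.6 CPM (log2 fold change -0.65 with SE 0.12 and adjusted p 0.00298). Of 30 genes of purine signalling and ADP-ribosylation, 6 were higher and 7 lower.

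Tmem176b and Tmem176a, neighbouring genes for intracellular cation channels on chromosome 6, rose together. Tmem176b (chr6:48833818-48841496, GRCm38) was at 2.37, 3.46, 11.8, 6.60 and 6.18 CPM in week 1 and 109, 91.2, 151, 169 and 99.9 CPM in week 4 (log2 fold change 4.35 with SE 0.41 and adjusted p 0.000195), and Tmem176a at 2.79, 3.23, 9.72, 6.96 and 4.65 CPM in week 1 and 90.6, 75.6, 136, 143 and 97.7 CPM in week 4 (log2 fold change 4.30 with SE 0.36 and adjusted p 0.000156). All 5 week 4 libraries were far above every week 1 library in both genes. Both stand in the marker list of NKT and MAIT cells given above, whose defining factor Zbtb16 was at 0 in week 4. Clic4, an intracellular chloride channel protein, fell from 173 ± 26.9 to 64.6 ± 7.99 CPM (log2 fold change -1.42 with SE 0.13 and adjusted p 0.000195). Of 53 ion channels and pumps, 12 were higher and 6 lower. The 6 became 10 without week 1 replicate 3 and 3 without week 4 replicate 1.

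G protein receptors and RGS proteins counted 12 higher and 5 lower of 57 (Gpr19, Adgrl1, Gpr183, Ptgir and Gnai3). The 5 became 1 without week 1 replicate 4 or 5 or week 4 replicate 4 or 5, 3 without week 1 replicate 1 or 2 or week 4 replicate 1, 8 with the block, and 9 without week 4 replicates 1 and 2. Adgrg3, an adhesion receptor, was at 3.21, 3.11, 10.8, 5.25 and 4.04 CPM in week 1 and 29.8, 34.8, 29.6, 33.8 and 42.5 CPM in week 4. The groups did not overlap (log2 fold change 2.68 with SE 0.34 and adjusted p 0.000575). Ptger3, a receptor for prostaglandin E2, rose from 2.30 ± 0.690 to 10.4 ± 3.13 CPM (log2 fold change 2.19 with SE 0.23 and adjusted p 0.000260), while Ptgir, the prostacyclin receptor, was at 1.58, 1.55, 2.04, 1.21 and 1.30 CPM in week 1 and 0, 0.167, 0.0522, 0.160 and 0.0434 CPM in week 4 (log2 fold change -4.13 with SE 0.51 and adjusted p 0.000486). Ptgir was low throughout, and its week 4 levels of at most 0.167 CPM rest on few reads. Semaphorin, plexin and guidance genes were lower in 7 of 21 cases and higher in 2, Sema4a and Unc5a (4 without week 4 replicates 1 and 2). Plxnd1, a semaphorin receptor, fell from 14 ± 3.16 to 3.88 ± 1.81 CPM (log2 fold change -1.85 with SE 0.33 and adjusted p 0.00296; -2.57 without week 4 replicates 1 and 2). Unc5a, a netrin receptor, rose from 3.25 ± 0.594 to 12.5 ± 6.26 CPM (log2 fold change 1.87 with SE 0.29 and adjusted p 0.00156).

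The cytoskeleton held some of the largest shifts in counts. Of 99 genes of actin, myosin and their regulators, 13 were higher and 24 lower. Actb, the main cytoplasmic actin, was at 6951, 6812, 5774, 7066 and 7339 CPM in week 1 and 4900.5, 5947, 5129, 4778 and 4745 CPM in week 4. Only week 1 replicate 3 and week 4 replicate 2 overlapped (log2 fold change -0.41 with SE 0.09 and adjusted p 0.00785). Myo1c, a membrane-linked myosin, was at 67.8, 68.9, 65.2, 71.8 and 68.9 CPM in week 1 and 22.5, 20.4, 29.4, 32.0 and 33.7 CPM in week 4. There was no overlap between the times (log2 fold change -1.33 with SE 0.12 and adjusted p 0.000156). Ahnak, a giant scaffold protein that supports calcium entry in T cells, was at 1003, 1014, 637, 947 and 982 CPM in week 1 and 2870.5, 3382, 1912, 2182 and 1810.5 CPM in week 4. The rise was 2.63-fold, with no overlap and the most in week 4 replicates 1 and 2 (log2 fold change 1.39 with SE 0.20 and adjusted p 0.000895). Macf1, which links actin to microtubules, rose from 720.4 ± 134 to 1514 ± 192 CPM (log2 fold change 1.07 with SE 0.14 and adjusted p 0.000641). Mbnl1, a splicing regulator, rose from 1281 ± 58.0 to 1976 ± 125 CPM (log2 fold change 0.63 with SE 0.06 and adjusted p 0.000241), and Pabpc1, which binds poly(A) tails, from 2569 ± 233 to 3376 ± 380.3 CPM (log2 fold change 0.39 with SE 0.09 and adjusted p 0.00897).

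Among the largest changes outside these lists, Ppp2r2c, a regulatory subunit of the phosphatase PP2A, was at 0.316, 0.717, 0.0582, 0.250 and 0.0763 CPM in week 1 and 38.7, 45.8, 0.783, 2.08 and 2.52 CPM in week 4. Its rise was mainly in week 4 replicates 1 and 2 (log2 fold change 5.55 with SE 1.12 and adjusted p 0.00513; 6.18 without week 1 replicate 4 and 2.50 without week 4 replicates 1 and 2). Thbs1, the matrix protein thrombospondin 1, was at 0.0526, 0.358, 0.931, 0.250 and 0.153 CPM in week 1 and 2.15, 1.89, 20.7, 23.1 and 45.9 CPM in week 4, and showed the opposite order, with the most in week 4 replicates 3 to 5 (log2 fold change 5.42 with SE 1.01 and adjusted p 0.00356; 6.53 without week 1 replicate 3, 4.63 without week 4 replicate 3 and 6.35 without week 4 replicates 1 and 2). Ctnnd2, a catenin, rose from 1.87 ± 0.606 to 18.5 ± 7.80 CPM (log2 fold change 3.29 with SE 0.33 and adjusted p 0.000237), and Fndc4, a fibronectin domain protein, was at 1.52, 1.67, 0.698, 0.714 and 0.992 CPM in week 1 and 17.4, 14.5, 2.45, 7.49 and 40.8 CPM in week 4 (log2 fold change 3.79 with SE 0.70 and adjusted p 0.00326; 3.15 without week 4 replicate 5). Gpld1, a phospholipase that cuts membrane anchors, was at 9.89, 24.2, 6.75, 16.8 and 8.77 CPM in week 1 and 2.15, 2.11, 0.157, 1.16 and 0.521 CPM in week 4 (log2 fold change -3.47 with SE 0.60 and adjusted p 0.00247; -4.49 without week 4 replicates 1 and 2). Selenbp1, a methanethiol oxidase, fell from 11.4 ± 6.34 to 1.77 ± 1.77 CPM (log2 fold change -2.98 with SE 0.63 and adjusted p 0.00664; -4.31 without week 4 replicates 1 and 2), Cnn3, an actin-binding calponin, from 13.2 ± 3.54 to 2.24 ± 0.688 CPM (log2 fold change -2.56 with SE 0.28 and adjusted p 0.000313). Pacsin1, an endocytosis adaptor, fell from 23.4 ± 5.20 to 4.24 ± 1.23 CPM (log2 fold change -2.48 with SE 0.23 and adjusted p 0.000182). Week 1 levels of Ppp2r2c and Thbs1 were at most 0.717 and 0.931 CPM, so the size of their folds rests on few reads.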

How the data were processed

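RNA-seq of sorted CD8 T cells was compared between week 4 and week 1 (5 libraries each). The authors deposited 1 raw count per gene and library. Per the file headers these counts came from featureCounts 1.6.3 with GENCODE M12 and the reverse strand option (-s 2), and per the submitters' processing notes the reads were aligned with STAR to mm10. The table's genes were named through GENCODE M21 and RefSeq, with 49412 of 49671 identifiers matched. From the counts, edgeR 4.0.16 (R 4.3.3) filtered low genes (filterByExpr), scaled libraries by TMM and fitted time and title range, with the quasi-likelihood test and Benjamini-Hochberg adjustment over 12402 genes at a threshold of 0.05. Mean ± SD is over 5 libraries. The difference between the ranges was an interaction term. Samples were grouped by their labels, and 0 value columns were left out. Depth of 13.3 to 28.3 M counts makes replicate spread, not counting error, the main limit for genes above a few CPM. Title numbers of the 2 times run in 5 neighbouring pairs, which the labels do not call pairs. Deviations from the means of time within title range correlated by 0.411, 0.674 and 0.650 in the pairs of range A. In range B each mean is of 2 libraries, so both pairs must give the same value, here 0.176. No such values are given for libraries that are not neighbours, so these correlations do not show that the libraries are paired. A fit with the pairs as a block is given where it moves a count or call. The code was tested on simulated data.

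Members and lists were chosen with earlier results of these data known, and 42 of 54 function lists are described, chosen after their counts were seen. Genes were named by rule, leaving out proliferation genes throughout. The rule took the 12 largest rises and falls (at least 10 CPM in the higher group, no overlap), the 8 largest changes in CPM each way, and up to 2 members per list and direction with the smallest adjusted p that met the same level and overlap conditions. For the rises, falls and CPM changes, ribosomal protein and mitochondrially encoded genes, pseudogenes, receptor segments and unnamed gene models were left out too. Cd44, Cd8a and Cd3e were named whatever their test. Some genes that the rule took are not reported here. These were chosen after their values were seen: Asb2, Asns, Btg1, Ccr9, Cd81, Cdkn2b, Chac1, Cln3, Clock, Cxcr5, Egr1, Ezh1, Ezh2, Gimap4, Glb1, Ifng, Il15ra, Il2rb, Il2rg, Irf4, Itgae, Kmt2c, Lag3, Nr1d1, Nr1h3, Nr4a1, Per3, Pik3ip1, Ptgir, Pycr1, Rb1, Rbl1, Scd1, Sesn1, Sgsh, Spry1, Suz12, Xcl1 and P2rx4, as were the members named without values. Other normalizations, filters, models, DESeq2 1.42.0, limma-voom (limma 3.58.1) and left-out libraries were alternatives. Promoter windows are from RefSeq (GRCm38.p6), where 9210 tested genes matched a window by symbol.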

Additional observations from a re-analysis of the deposited data

Results flagged for a closer look

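Among 430 groups of 5 values (215 named genes at 2 times), 34 held 1 library whose gap to the nearest other library, divided by the group's range, was above Dixon's critical value of 0.71. For normally distributed values, chance would flag about 1 group in 20. The 430 groups share the same 10 libraries, and many genes were chosen for no overlap, so this rate is only a rough guide. Week 1 replicate 3 was the library that stood apart in 24 of the 34 cases. It was the high one, in CPM, for the nuclear receptors Nr4a1 (23.86) and Nr4a3 (20.78), the RAS inhibitor Spry1 (12.45), the factor Irf8 (204.4), the kinase Jak1 (840.9) and the receptor chain Il2rg (317.0). The same held for Slamf1 (44.93), Adgrg3 (10.82), Btg1 (214.5), Gimap4 (1385), Gimap9 (133.1), Tef (44.98), Cln3 (82.87) and Gnai3 (282.1). It was the low one for the kinases Tyk2 (91.95), Ripk3 (66.17) and Pdk3 (43.36), and for Aars (116.7), Cars (36.26), Slc7a5 (167.6), Ahnak (636.6), Clic4 (125.8), Rbl1 (74.14) and Pilrb1 (5.529).

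Week 1 replicate 2 stood apart for the elongation factor Eef1a1 (9524 CPM), the granzyme Gzmg (0.5375) and the channel Trpm4 (25.74), week 1 replicate 1 for Lyar (79.46) and week 1 replicate 5 for the ribosomal protein Rps28 (289.9). In week 4, replicate 3 stood apart for Arhgap4 (350.9 CPM), Itgae (1.096), Jun (183.8) and Sema7a (0.4177), and replicate 5 for Maf (8.119). The week 4 change of Egr1 differed between the title ranges in an interaction test, by -4.05 on the log2 scale (range B minus range A).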

How the results depend on the processing

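The counts of 1855 genes higher and 2061 lower became 189 and 468 when tested against a fold of 1.5 (glmTreat). They were 230 and 287 within title range A alone and 3132 and 3254 within range B alone. Leaving out 1 library gave 1260 to 2827 higher and 1455 to 2841 lower genes, the most without week 1 replicate 3. DESeq2 gave 2155 and 2485, and the other settings run stayed within 1.5 times of the main counts. The number of genes called for a change that differed between the ranges was 1. It was 117 with DESeq2, 0 with limma-voom and 53 without a filter. With 1 library left out it ran from 0 to 107 (107 without week 4 replicate 3), and it was 0 without week 4 replicates 1 and 2. The Egr1 difference thus rests on the setting. Many named genes were chosen from these data for a small adjusted p and no overlap, which favours keeping call and direction when 1 library is left out. Of the 215 called named genes, 184 kept their call whichever single library was left out, and none reversed. But 125 of 215 lost it when tested against a fold of 1.5, and 127 of 214 within range A alone. With neighbouring title numbers as a replicate block, 1957 and 2111 genes were called, and 3 named genes lost their call (Gabarapl1, Ldha and Malat1). List counts that this block moved by over 1.5 times stand beside those lists. Cd3e, not called, turned to -0.18 in range B alone and -0.09 without week 4 replicates 1 and 2. Cd8a, not called, ranged from -0.11 (without week 4 replicate 3) to 0.32 with 1 library left out. Egr1, not called, turned to 1.19 in range A alone and ranged from -0.82 to 0.35 with 1 library left out (0.35 and 0.34 without week 4 replicates 4 and 5). P2rx4, not called, turned to 0.94 in range B alone and 0.12 without week 4 replicates 1 and 2. The causes were not tested.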
